A study of Mus musculus with 10 samples.

Results

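The solute carriers described here move ions, bicarbonate and metals across membranes. They were chosen by symbol, as the genes of the Slc4, Slc8, Slc9, Slc11, Slc12, Slc24, Slc26, Slc30, Slc31, Slc39, Slc40 and Slc41 families with at least 1 probe set that matched a single gene and had a value in every cell. This gave 71 genes, measured by 135 probe sets, of 17919 genes in all. The rule used no measured level, but it was chosen with earlier results of these data known. The annotation lists 79 genes of these families. Of the other 8, Slc4a10 and Slc9a4 had values at P30 only and the others were not analysed here.

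Expression was measured in 10 single Bergmann glia, 5 from mice at postnatal day 30 (P30) and 5 at postnatal day 6 (P6), each hybridised to 1 Affymetrix whole-genome mouse array. The groups differ in age, and the comparison asks how transcripts of Bergmann glia differ between a mature and an early postnatal cerebellum. All mice were GFAP-GFP transgenics, in which the Gfap promoter drives GFP, and no other genotype or treatment was given at either age. Cells were picked by strong GFP and by bushy processes on one side of the soma, and their cDNAs were screened for glial and against neuronal transcripts, so cells with weak GFP are not represented.

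The deposited values are ratios. Each probe set had been scaled on its own, so values compare cells for one gene and never one gene with another. The methods name a median as the divisor. The median of the P6 cells was at 1 (within 0.0005) in 69.5% of the complete probe sets and that of all 10 cells in 1.66%, so a log2 ratio of 0 typically marks the middle P6 cell. Log2 ratios were averaged over the probe sets of a gene, and differences are P30 minus P6. A gene is called higher or lower at P30 where the difference of the 5-cell means exceeded 3-fold, 1.58 on the log2 scale. Each array is 1 cell and no animal was named, so each age counts as 1 sample. There is no replicate check of the age difference, no p-value was computed, and SDs describe cells.

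Bergmann glia are astroglia of the cerebellar cortex whose processes wrap Purkinje cell dendrites and synapses. Bicarbonate, proton and chloride carriers of astroglia set cell and extracellular pH and cell volume, and sodium-calcium exchangers clear calcium that enters during activity. Zinc carriers fall into exporters of the ZnT family (Slc30), which move zinc out of the cytosol, and importers of the ZIP family (Slc39), which move it into the cytosol. Iron, copper and magnesium have small families of their own.

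Of the 71 carriers, 5 were higher and 7 lower at P30 by the size rule. Among all genes 4.93% were higher and 9.39% lower at P30, 14.3% in either direction. The 12 carriers are 16.9% of 71 (7 higher and 5 lower with each array divided by its median), and the median difference over the 71 was -0.01, against -0.05 over all genes. Zinc transporters supplied 9 of the 12: 3 of 24 were higher (Slc39a13, Slc30a1 and Slc39a12) and 6 lower (Slc39a11, Slc39a4, Slc30a7, Slc39a2, Slc30a5 and Slc39a10), together 37.5%. The remaining 3 were Slc41a3 and Slc24a3, higher, and Slc31a1, lower, 6.38% of the 47 carriers outside the zinc families. The median difference was -0.64 in the zinc families, where 16 of 24 means were lower at P30, and 0.19 in the others, where 20 of 47 were lower. The zinc families also varied more between cells of 1 age, with a median SD of 1.36, against 0.81 in the other carriers and 1.04 over all genes. The part of this spread in the counts past 3-fold was not tested, nor were the shares.

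**Figure D1:**
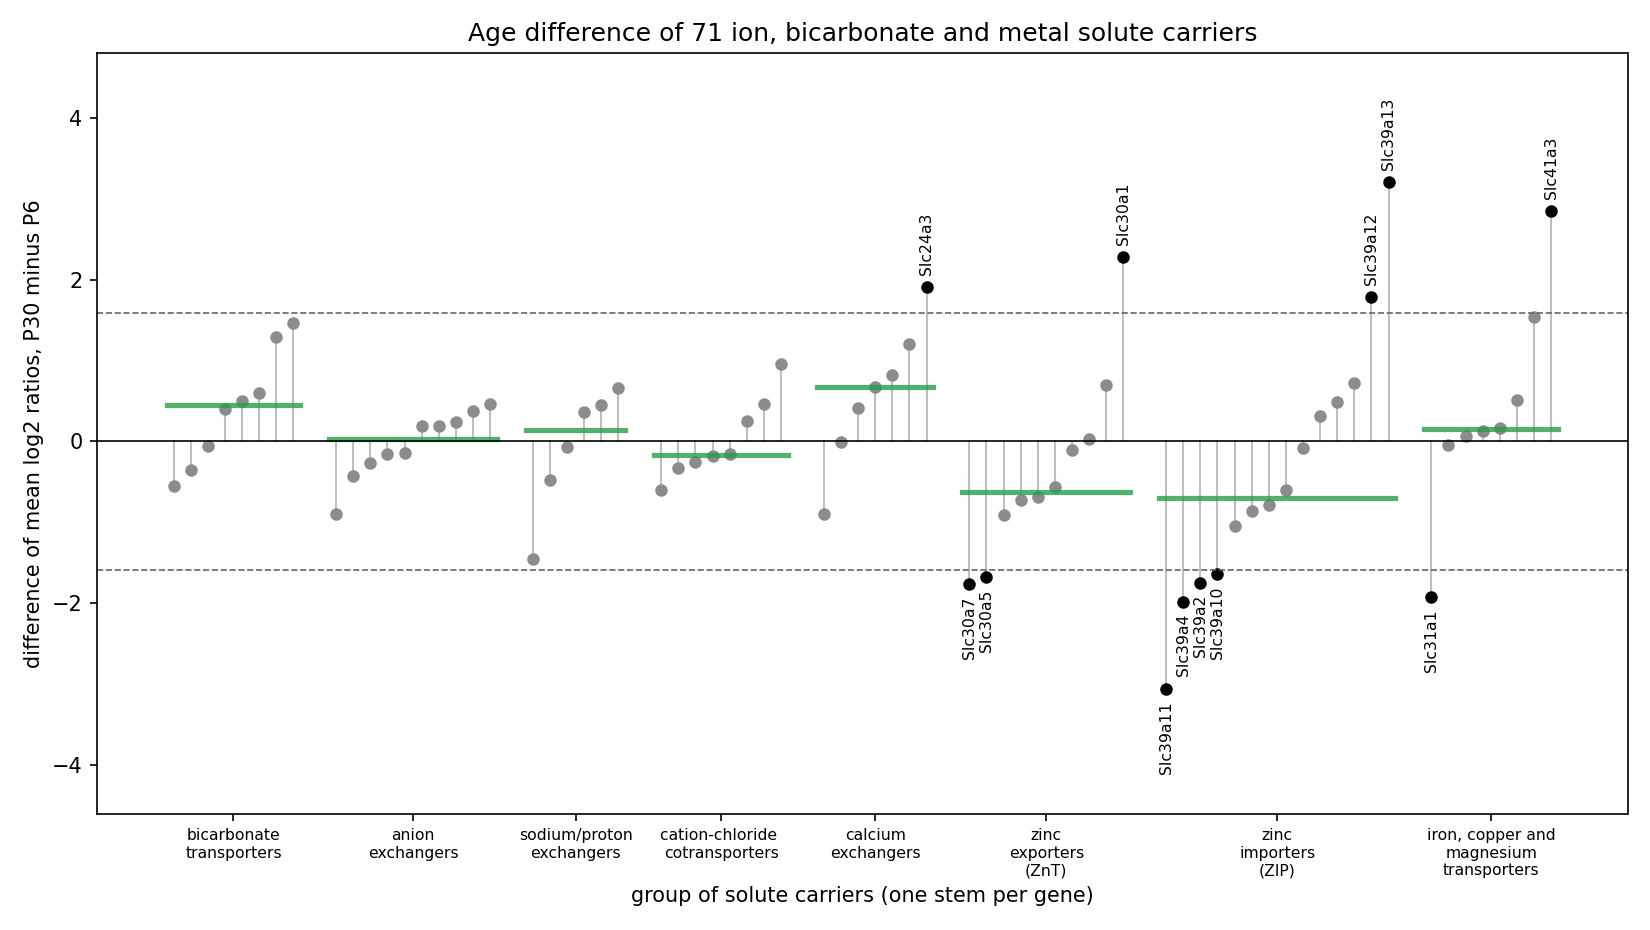
Age difference of each of the 71 carriers, grouped by ion. Each stem is 1 gene, the vertical axis is the difference of mean log2 ratios (P30 minus P6, 5 cells each), dashed lines mark 3-fold, green bars mark the group medians and black points the 12 genes past 3-fold. The zinc exporters and importers hold 9 of the 12, and no bicarbonate, anion, sodium/proton or cation-chloride carrier lies outside the dashed lines.

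No carrier had all 5 P30 cells on one side of all 5 P6 cells, a separation met by 3.54% of all genes (1.41% with P30 above and 2.13% with P30 below). Among the 135 probe sets it was met by 2, of Slc41a3 and Slc39a12, both higher at P30, against 2.99% of all probe sets. Genes with a single probe set passed the size rule more often over the whole table, 16.8% against 11.7% of genes with more. In the zinc families 5 of 14 genes with 1 probe set and 4 of 10 with more passed it. In the other carriers these counts were 1 of 17 and 2 of 30.

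Whole-array facts bear on these differences. Dividing each array by its median would raise every difference by 0.16, and scaling to 18 probe sets of hybridisation spikes would lower it by 0.28, so positive differences or medians under 0.28, and negative ones smaller than 0.16, change sign under one of them. The floor of 0.01 (-6.64 on the log2 scale) was met by 2.52% of the carriers' P30 values and 1.78% of their P6 values. P30 replicate 5 stood apart. All 14 endothelial and pericyte markers were above the median of the other 4 P30 cells, with a median excess of 4.21. Of the 7 Purkinje markers 5 were above it, with a median excess of 2.58 over all 7. In P6 replicate 5 the Purkinje markers had a median excess of 1.33 (5 of 7 above). There the 14 general neuronal markers had one of 1.12 (9 of 14 above). Between the ages, the 21 astroglial markers had a median difference of 0.45, the 11 oligodendrocyte markers 0.59, the 14 endothelial and pericyte markers 0.40 and the 8 meningeal and fibroblast markers -0.64. Their part in the carriers' differences was not tested. Without both cells numbered 5 the counts were 6 carriers higher and 7 lower, 9 of them zinc transporters. Ratios do not show whether a marker is present. The authors scaled each array to its median, so a change in the total RNA content of a cell cannot be read from ratios. A difference in 1 gene is relative to the rest of its array.

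Zinc export was led by Slc30a1, the plasma membrane exporter ZnT1 and a known target of the zinc-sensing factor Mtf1. Its log2 ratios were 0.77, 1.44, 0.72, 1.56 and 1.43 in P30 cells and 0.44, -3.96, 1.16, -3.10 and -0.03 in P6 cells. P6 replicates 2 and 4 lay far below every P30 cell, and P6 replicate 3 within the P30 range. The difference was 2.28, or 4.87-fold higher at P30, and 1.57 without P6 replicate 2, just under the size rule. Its 2 probe sets disagreed, with differences of 4.48 and 0.09. P30 replicate 5 was the lowest P30 cell in the first, at 1.72, and the highest in the second, at 1.14.

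Slc30a5 and Slc30a7, which load zinc into the secretory pathway, were lower at P30. Slc30a7 had log2 ratios of -2.81, -3.26, -2.85, -1.73 and -0.31 in P30 cells and 2.17, -0.43, -4.14, 0.00 and 0.25 in P6 cells, a difference of -1.76 (3.39-fold lower at P30). The lowest cell of all was P6 replicate 3, and the ages overlapped. Both of its probe sets pointed the same way, -1.98 and -1.54, and the first held values at the floor at both ages. The difference was -1.5 without P30 replicate 2 and -1.11 without P6 replicate 1, both under the size rule.

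Slc30a5 had log2 ratios of -0.26, 0.48, -1.84, -5.28 and -2.09 in P30 cells and 0.00, -1.09, 0.96, 0.72 and -1.17 in P6 cells. Its difference of -1.68 (3.21-fold lower at P30) leaned on P30 replicate 4, without which it was -0.81. It was also under the size rule without P6 replicate 3 (-1.41) or P6 replicate 4 (-1.47). Slc30a6, the partner of Slc30a5 in a zinc-transporting heterodimer, had a difference of 0.70 and did not pass.

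The other exporters had differences from -0.90 (Slc30a9) to 0.70 (Slc30a6), and the median over all 10 was -0.62. Slc30a10, which in mammals exports mainly manganese, was among the most scattered: its log2 ratios were -3.98, 3.21, -0.52, -3.24 and -2.62 in P30 cells and -0.67, -3.68, 2.29, -3.58 and 2.09 in P6 cells. High and low cells stood at both ages, with a difference of -0.72 that became -1.88 without P30 replicate 2. The SD within ages was 2.90, wider than in 97.7% of all genes.

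Zinc import held both the highest and the lowest difference of the 71 carriers. Slc39a13 (ZIP13), which releases zinc from intracellular stores and is known for its role in connective tissue, had log2 ratios of 3.74, 4.95, 3.16, 2.66 and 2.34 in P30 cells and 0.00, -2.65, 2.75, 2.89 and -2.20 in P6 cells. All P30 cells were high, while P6 cells split into 2 within the P30 range and 3 at or below the P6 median. The means were 3.37 ± 1.03 at P30 and 0.16 ± 2.63 at P6 (SD over 5 cells each), a difference of 3.21, or 9.25-fold higher at P30. It has 1 probe set, and the difference stayed between 2.51 and 3.89 with any 1 cell left out.

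Slc39a12 (ZIP12), an importer known for its expression in brain, had log2 ratios of 3.35, 0.82, 0.79, 0.04 and 0.09 in P30 cells and -1.55, -1.90, -0.35, 0.16 and -0.17 in P6 cells. P30 replicate 1 was far above its group, and only P6 replicate 4 reached the lowest P30 cells. The difference was 1.78 (3.44-fold higher at P30), falling under the size rule without P30 replicate 1 (1.20) or P6 replicate 2 (1.5), or with spike scaling (1.51). One of its 2 probe sets carried the difference, 3.35 against 0.22 for the other. That probe set read 6.32, 1.06, 1.37, 0.63 and 0.73 in P30 cells and -2.68, -3.80, -0.38, 0.25 and 0.00 in P6 cells, with every P30 cell above every P6 cell.

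Among the importers lower at P30, Slc39a4 (ZIP4), best known for zinc uptake in the intestine, was the steadiest. Its log2 ratios were -1.92, -3.52, -1.08, -1.53 and -2.62 in P30 cells and 0.00, -1.48, -0.16, 0.80 and 0.06 in P6 cells. The overlap was limited to P6 replicate 2, which lay among the highest P30 cells. The means were -2.13 ± 0.96 at P30 and -0.15 ± 0.83 at P6, a difference of -1.98 (3.94-fold lower at P30) that ran from -2.31 to -1.63 with any 1 cell left out.

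Slc39a11 (ZIP11), an intracellular zinc carrier, had log2 ratios of -6.64, -6.64, -6.29, -6.64 and 0.86 in P30 cells and -6.64, -4.82, 0.46, -0.68 and 1.62 in P6 cells. It was at or near the floor in 4 P30 cells and high in P30 replicate 5, the cell with high endothelial markers, while P6 cells spread over the whole range. The difference was -3.06 (8.34-fold lower at P30), which is no bound because the floor was met at both ages, and -4.54 without P30 replicate 5. With the floor at 0.1 it was -1.44 and no longer passed.

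Slc39a2 (ZIP2) had log2 ratios of -2.63, 0.15, -1.46, -1.38 and 0.64 in P30 cells and 0.00, 0.01, -0.42, 4.84 and -0.37 in P6 cells. A single high cell, P6 replicate 4, set most of its difference of -1.74 (3.35-fold lower at P30), which was -0.74 without that cell and -1.32 without P30 replicate 1. Slc39a10 (ZIP10), a plasma membrane importer, had log2 ratios of -3.63, -4.61, -3.47, -1.29 and -0.72 in P30 cells and -1.26, -2.88, -1.13, -0.03 and -0.22 in P6 cells. The lowest 3 cells were all from P30, but the ages overlapped. Its difference of -1.64 (3.11-fold lower at P30) lay just past the size rule and fell under it without P30 replicate 1 (-1.42), 2 (-1.17) or 3 (-1.46), or without P6 replicate 4 (-1.37) or 5 (-1.42).

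**Figure D2:**
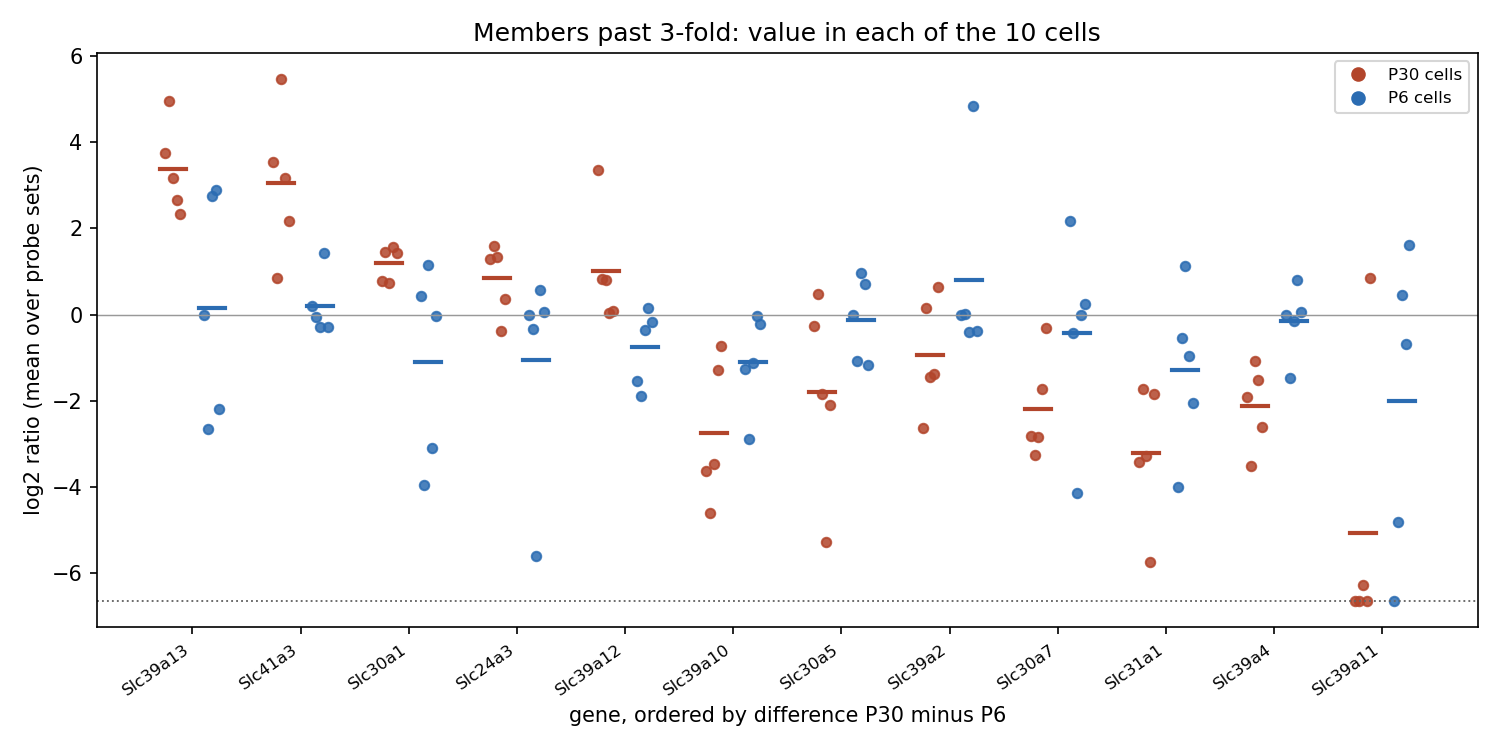
Log2 ratio in each cell for the 12 carriers past 3-fold, ordered by their difference. Red points are P30 cells and stand left of the blue P6 cells, bars mark the mean of 5 cells, the solid line is a ratio of 1 and the dotted line the floor of 0.01. Slc39a13, Slc41a3 and Slc39a4 kept the call in the processing alternatives and with any 1 cell left out. P6 replicates 3 and 4 of Slc39a13 (2.75 and 2.89) still lie within its P30 range. Single low or high cells are visible for Slc24a3 (P6 replicate 3 at -5.61) and Slc39a2 (P6 replicate 4 at 4.84).

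The remaining 8 importers did not pass, with differences from -1.04 (Slc39a8) to 0.72 (Slc39a7), and the median over all 14 was -0.70. Slc39a1 (ZIP1), a general plasma membrane importer, had log2 ratios of -0.37, 0.11, -0.04, -0.05 and -2.90 in P30 cells and -0.06, 0.00, 0.45, 0.45 and -0.13 in P6 cells. Its difference of -0.79 was -0.23 without P30 replicate 5. Slc39a14, which carries zinc, manganese and iron and is known for hepatic uptake, had a difference of -0.60 with 4 probe sets between -2.19 and 0.51. In its lowest probe set the ratios were -4.6, -3.90, -4.10, -4.16 and -2.0 in P30 cells and 0.78, -1.82, -4.57, 1.5 and -3.73 in P6 cells. The P30 cells were low apart from replicate 5, and P6 cells lay at both ends. Slc39a8, a zinc and manganese importer picked here after its values were seen, had probe sets at -3.32 and 1.25.

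Zinc-responsive genes such as Slc30a1 and the metallothioneins are known to carry metal response elements, short motifs bound by Mtf1 with the core TGCACNC or TGCGCNC. These letters were searched on both strands in windows of 250 bases before to 50 bases after each RefSeq transcript start (GRCm38.p6). Of 24 zinc transporters 20 had a window, and 11 of them (55.0%) held at least 1 match. Of all 71 carriers 57 had a window and 25 (43.9%) held a match, against 28.2% of 27025 RefSeq genes with a window, measured here or not. Outside the zinc families 37 of 47 carriers had a window and 14 (37.8%) held a match. With at least 2 matches the shares were 20.0% of zinc transporters, 10.5% of all carriers, 5.41% outside the zinc families and 8.07% of genes. These shares were not tested. The 250 bases before the start are printed for 4 genes higher at P30, in the direction of transcription with matches in capitals: Slc30a1 (chr1:191906531-191906780, plus strand), Mt1 (chr8:94178839-94179088, plus strand), Slc41a3 (chr6:90618996-90619245, plus strand) and Slc39a13 (chr2:91070316-91070565, minus strand), to show a known Mtf1 target and a metallothionein beside the 2 carriers with the largest differences upward at P30.
Slc30a1 promoter: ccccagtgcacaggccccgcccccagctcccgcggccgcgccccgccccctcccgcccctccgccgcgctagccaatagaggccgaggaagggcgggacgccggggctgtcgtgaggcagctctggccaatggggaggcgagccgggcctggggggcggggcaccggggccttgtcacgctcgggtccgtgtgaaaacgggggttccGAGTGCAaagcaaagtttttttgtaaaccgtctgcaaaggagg
Mt1 promoter: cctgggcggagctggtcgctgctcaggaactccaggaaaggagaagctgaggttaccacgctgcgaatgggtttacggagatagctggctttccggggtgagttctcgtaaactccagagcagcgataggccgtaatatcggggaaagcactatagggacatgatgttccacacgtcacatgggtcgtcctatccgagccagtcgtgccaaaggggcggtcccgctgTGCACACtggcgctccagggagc
Slc41a3 promoter: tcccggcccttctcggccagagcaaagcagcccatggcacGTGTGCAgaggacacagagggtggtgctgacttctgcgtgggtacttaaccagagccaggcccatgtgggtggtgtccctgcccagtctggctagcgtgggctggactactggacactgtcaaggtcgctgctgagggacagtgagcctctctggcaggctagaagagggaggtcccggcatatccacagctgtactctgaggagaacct
Slc39a13 promoter: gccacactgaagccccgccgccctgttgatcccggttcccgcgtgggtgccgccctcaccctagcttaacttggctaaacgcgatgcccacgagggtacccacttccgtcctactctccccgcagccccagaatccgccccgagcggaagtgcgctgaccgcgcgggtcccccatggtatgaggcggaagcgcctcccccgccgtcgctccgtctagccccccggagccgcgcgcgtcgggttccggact
In Slc30a1 the match starts 43 bases before the transcript start and reads GAGTGCA, the motif on the opposite strand. In Mt1 it starts 23 bases before the start, and in Slc41a3 it lies 210 bases before it on the opposite strand. In the whole window, with the 50 bases past the start, Slc30a1 held 2 matches and Mt1 3. The 250 bases of Slc39a13 hold none, and its 1 match lies past the start. Slc30a7, Slc39a2, Slc39a10 and Slc39a12 had no match in any of their windows, and Slc39a4 had no window. Slc30a5 and Slc39a11, both lower at P30, held 1 match in each of their windows. A match is a run of letters, not a measured binding site.

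Of 7 genes that bind or sense zinc, 1 passed the size rule, the metallothionein Mt1, against 14.3% of all genes. The median difference was 0.03. Mt1 had log2 ratios of 3.55, 0.94, 0.22, 2.69 and 2.59 in P30 cells and -0.33, 0.30, -0.43, 3.08 and -0.71 in P6 cells. P6 replicate 4 lay among the high P30 cells, P6 replicate 2 just above the lowest P30 cell and the other P6 cells below every P30 cell. Its difference of 1.62 (3.07-fold higher at P30) lay just past the size rule. It was under it with spike scaling (1.34), without P30 replicate 1 (1.23), 4 (1.44) or 5 (1.47), and without P6 replicate 1 (1.44), 3 (1.41) or 5 (1.34).

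Among the magnesium transporters Slc41a3, described in mitochondria, was higher at P30. It had log2 ratios of 3.55, 0.85, 5.46, 3.18 and 2.17 in P30 cells and 0.20, -0.05, -0.29, 1.42 and -0.30 in P6 cells. P6 replicate 4 exceeded P30 replicate 2, and otherwise the ages did not overlap. The means were 3.04 ± 1.71 at P30 and 0.19 ± 0.71 at P6, a difference of 2.85, or 7.20-fold higher at P30. All 3 probe sets pointed the same way, at 3.63, 2.72 and 2.20, and the difference stayed between 2.24 and 3.40 with any 1 cell left out. Slc41a1, which exchanges sodium for magnesium at the plasma membrane, had a difference of 0.17 and Slc41a2 one of 0.13. Of 15 other genes of magnesium handling 1 passed, Nipa2 (-2.45), a magnesium transporter, against 14.3% of all genes. The median was 0.34.

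Slc31a1 (CTR1), the main copper importer of the cell surface, was lower at P30. Its log2 ratios were -3.42, -1.73, -3.29, -5.74 and -1.85 in P30 cells and -4.00, -0.55, 1.13, -0.96 and -2.05 in P6 cells. P6 replicates 1 and 5 lay among the P30 cells, and both probe sets, at -2.65 and -1.19, met the floor in some cell. The difference of -1.92 (3.79-fold lower at P30) was -1.29 without P30 replicate 4 and -1.32 without P6 replicate 3.

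Slc31a2 (CTR2), the related copper transporter of internal membranes, fell just short of the size rule and was picked after its values were seen. Its log2 ratios were 0.83, 1.85, 2.71, 1.71 and 1.10 in P30 cells and 0.01, -1.24, 1.58, -0.72 and 0.86 in P6 cells, a difference of 1.54. The ages overlapped through P6 replicates 3 and 5. The 9 genes that bind or deliver copper inside the cell had a median of -0.77. Of these 3 were lower at P30 and none higher, against 9.39% and 4.93% of all genes. They were Cox17 (-2.14), Sco1 (-1.88) and Sco2 (-2.56), which deliver copper to cytochrome oxidase.

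Iron carriers showed no gene past the size rule. Slc11a2 (DMT1), which imports ferrous iron, had log2 ratios of -0.78, -2.86, -1.89, 2.09 and 0.10 in P30 cells and -0.51, -0.69, -2.96, -1.88 and 0.17 in P6 cells. The difference of 0.51 rested on P30 replicate 4 and was -0.18 without it. Slc40a1 (ferroportin), the iron exporter, had a difference of -0.04 that averaged 2 opposed probe sets, -1.95 and 1.88. The first read -0.32, -2.58, -3.12, -2.56 and -3.11 in P30 cells and -2.91, 0.00, -1.52, 1.43 and 1.09 in P6 cells. The second read 0.76, -0.59, -1.02, 1.23 and -1.87 in P30 cells and 0.00, -3.24, -3.28, -2.15 and -2.19 in P6 cells. P30 cells were mostly the lower ones in the first and the higher ones in the second, and the gene mean stands for neither.

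The 22 other genes of iron handling had a median of -0.08. Of these 1 was higher at P30 and 4 lower, against 4.93% and 9.39% of all genes. Hfe, which regulates iron uptake and hepcidin, was higher, with log2 ratios of 3.98, 6.02, 1.48, 8.23 and 4.45 in P30 cells and 1.40, -0.12, -0.36, 0.00 and 2.47 in P6 cells. Only P30 replicate 3 lay within the P6 range, and the difference was 4.15 (17.8-fold higher at P30). The lower ones were Heph (-2.15), a ferroxidase, Aco1 (-2.19), an iron-sensing RNA-binding protein, Hmox2 (-2.88), a heme oxygenase, and Cybrd1 (-1.69), a ferric reductase.

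**Figure D3:**
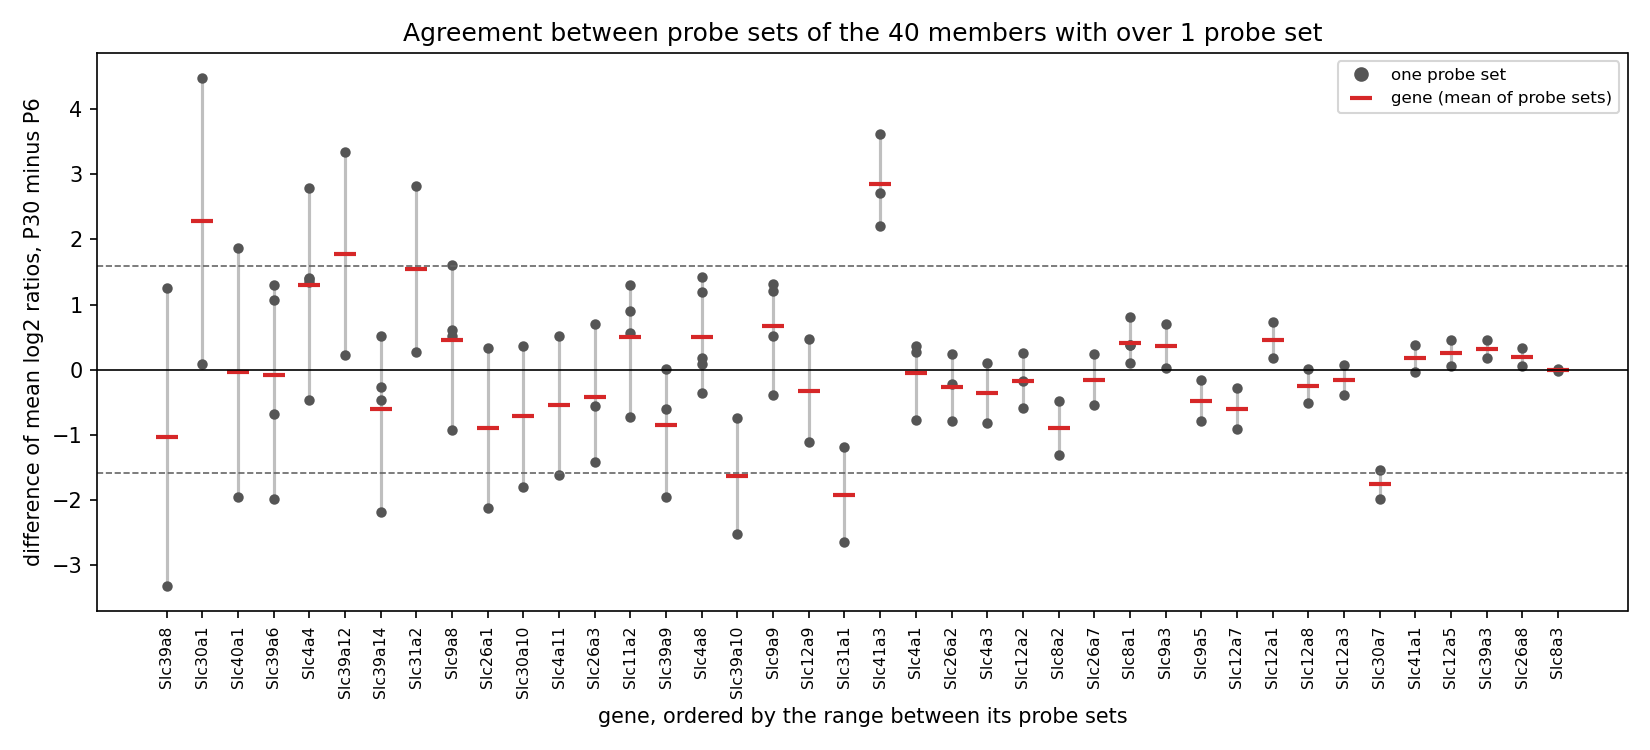
Agreement between probe sets for the 40 carriers with more than 1 probe set, ordered by the range between them. Each gray point is 1 probe set, the red bar is the gene mean, the vertical axis is the difference of mean log2 ratios (P30 minus P6) and dashed lines mark 3-fold. In 24 genes the probe sets point both ways, among them Slc40a1 (-1.95 and 1.88) and Slc39a8 (-3.32 and 1.25), while the 3 probe sets of Slc41a3 all lie above 3-fold.

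Probe sets of 1 gene often disagreed. Of the 40 carriers with more than 1 probe set, 16 had all differences of the same sign and 24 had both signs. Among the 135 probe sets 11 were higher and 15 lower at P30 by the size rule, against 17.7% of all probe sets in either direction. All 6 called genes with more than 1 probe set (Slc30a1, Slc39a12, Slc41a3, Slc30a7, Slc39a10 and Slc31a1) had probe sets of the same sign. The call rests on the mean of these same probe sets, which favours a shared sign, so this is no separate check.

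Calcium exchangers were the group with the highest median difference, 0.68 over 7 genes. All 4 potassium-dependent exchangers (Slc24), which use sodium and potassium gradients to extrude calcium, had a higher mean at P30, with a median of 1.01. Slc24a3 passed the size rule, with log2 ratios of 1.29, 1.59, 1.34, -0.38 and 0.37 in P30 cells and 0.00, -0.34, -5.61, 0.57 and 0.05 in P6 cells. P6 replicate 3 was far below every other cell. The difference was 1.91 (3.75-fold higher at P30) and 0.77 without that cell.

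Slc24a4 had log2 ratios of 2.57, 0.49, 1.15, 2.38 and -0.72 in P30 cells and 0.49, -0.06, 0.16, 0.00 and -0.75 in P6 cells. The P30 cells other than replicates 2 and 5 were above the highest P6 cell, and P30 replicate 2 was level with it at 0.49. The difference was 1.21 with all cells and 1.68 without P30 replicate 5. Slc24a2 and Slc24a1 had differences of 0.82 and 0.68.

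The sodium-calcium exchangers of the Slc8 family had smaller differences, 0.41 for Slc8a1, -0.90 for Slc8a2 and -0.01 for Slc8a3. Slc8a1 (NCX1), the broadly expressed member, had log2 ratios of 0.32, -0.14, -1.14, 0.70 and -0.91 in P30 cells and -1.75, 0.15, 0.08, -0.82 and -0.90 in P6 cells, and its 4 probe sets ran from 0.11 to 0.80. The ages overlapped over most of their range.

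Of 15 other genes of calcium handling 1 was higher at P30 and 3 lower, against 4.93% and 9.39% of all genes. Slc8b1, the mitochondrial sodium-calcium exchanger, which carries an Slc8 name without matching the family pattern, had log2 ratios of 0.63, 2.88, 5.28, 0.93 and 2.26 in P30 cells and -0.39, -0.94, 0.38, 0.46 and 0.00 in P6 cells. Every P30 cell lay above every P6 cell, with a difference of 2.5 (5.64-fold higher at P30). The lower ones were Micu2 (-3.60), a regulator of the mitochondrial calcium uniporter, Calr (-2.0), a calcium-binding chaperone of the endoplasmic reticulum, and Atp2b1 (-1.72), a plasma membrane calcium pump.

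Bicarbonate transporters had a median difference of 0.45 over 8 genes, none past the size rule. Slc4a4 (NBCe1), the electrogenic sodium bicarbonate cotransporter of astroglia, had log2 ratios of 0.65, 1.22, 1.54, 1.08 and -0.10 in P30 cells and 0.10, -1.12, 0.92, -0.68 and -1.31 in P6 cells. It was high in P30 cells other than replicate 5, and only P6 replicate 3 reached their range. The difference was 1.30 (2.45-fold), with 4 of 5 probe sets between 1.35 and 2.79 and the fifth at -0.47, and 1.63 without P6 replicate 3.

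Slc4a2 (AE2), a chloride-bicarbonate exchanger, had log2 ratios of 3.55, 5.79, 3.23, -0.64 and 2.59 in P30 cells and 3.79, 4.86, -0.03, 0.00 and -1.41 in P6 cells. High cells stood at both ages, 4 at P30 and 2 at P6. Its difference of 1.46 passed the size rule without P30 replicate 4 (2.35), P6 replicate 1 (2.05) or P6 replicate 2 (2.31). The other 6 had differences from -0.55 (Slc4a11) to 0.60 (Slc4a5). Slc4a10, a sodium-driven bicarbonate transporter outside the 71, had log2 ratios of 0.50, 0.24, 0.25, 1.76 and 3.23 in P30 cells and no usable P6 value.

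The 17 carbonic anhydrases and other bicarbonate partners had a median of 0.51. By the size rule 4 were higher at P30 and none lower, against 4.93% and 9.39% of all genes. Car2, the cytosolic carbonic anhydrase, had log2 ratios of 5.34, 5.70, 5.93, 4.52 and 4.27 in P30 cells and 0.19, -1.15, 3.56, -0.22 and -2.47 in P6 cells. Every P30 cell lay above every P6 cell, with a difference of 5.17 (36.1-fold higher at P30). Car2 is also known as an oligodendrocyte transcript, and the 11 oligodendrocyte markers had a median difference of 0.59. Their part in it was not tested. The other 3 were Car4 (1.91), a membrane-bound enzyme, and the catalytically inactive relatives Car10 (1.82) and Car11 (1.92).

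**Figure D4:**
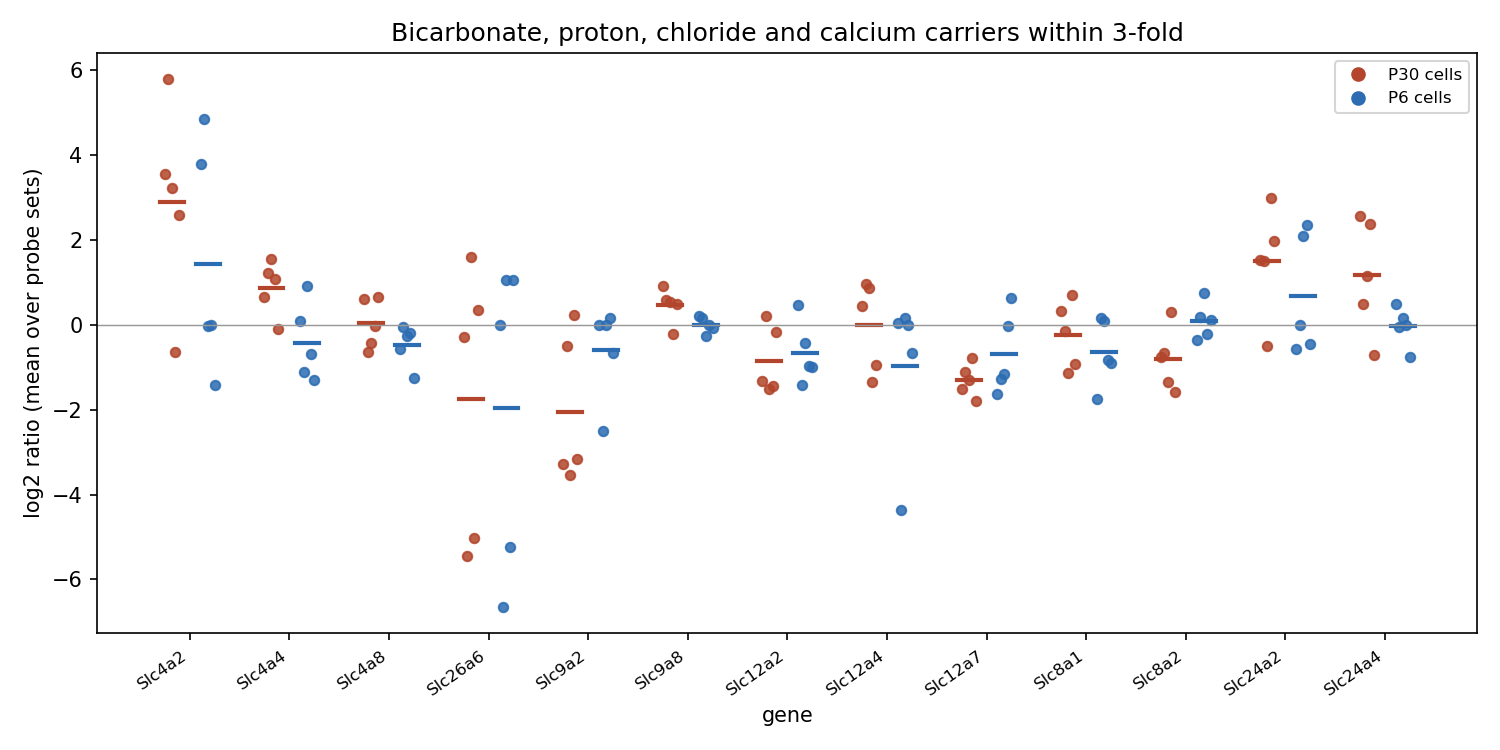
Log2 ratio in each cell for 13 bicarbonate, anion, proton, chloride and calcium carriers, picked by hand from those that stayed within 3-fold. Red points are P30 cells and stand left of the blue P6 cells, bars mark the mean of 5 cells and the line is a ratio of 1. The P30 and P6 cells overlap for every gene, and Slc26a6 has cells near the floor at both ages.

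Sodium/proton exchangers had a median difference of 0.15 over 6 genes, none past the size rule. Slc9a2 (NHE2) had log2 ratios of -3.28, -0.49, -3.54, 0.24 and -3.17 in P30 cells and 0.00, -2.51, 0.01, 0.17 and -0.67 in P6 cells. P30 cells fell into 3 low and 2 near the P6 cells. The difference was -1.45 and passed the size rule without P30 replicate 2 (-1.84), P30 replicate 4 (-2.02) or P6 replicate 2 (-1.93). Slc9a9, an endosomal exchanger, had a difference of 0.66. Slc9a7, an exchanger of the Golgi network picked after its values were seen, was at the floor in 2 P30 cells and 4 P6 cells, with a difference of -0.07. Of 6 measured partners of these exchangers none passed, against 14.3% of all genes, and the median was 0.56.

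Cation-chloride cotransporters had a median difference of -0.17 over 8 genes, none past the size rule. Slc12a2 (NKCC1), which loads cells with chloride, had log2 ratios of -1.32, 0.20, -1.51, -1.43 and -0.16 in P30 cells and 0.46, -1.41, -0.42, -0.98 and -1.0 in P6 cells. The ages overlapped over most of their range, with a difference of -0.18. Slc12a4 (KCC1), which moves potassium and chloride outward, had a difference of 0.95 that was 0.10 without P6 replicate 2, a cell at -4.36. Slc12a7 (KCC4) had a difference of -0.60, and the neuronal Slc12a5 (KCC2), picked after its values were seen, one of 0.25.

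The 17 kinases of these cotransporters and chloride channels had a median of -0.37. Of these 4 were lower at P30 and none higher, against 9.39% and 4.93% of all genes. They were Wnk3 (-1.76) and Oxsr1 (-1.66), kinases that act on the cotransporters, Cab39 (-2.04), a scaffold of the same kinase pathway, and Clic1 (-1.89), an intracellular chloride channel. Oxsr1 had log2 ratios of -0.08, -3.92, -3.78, -2.54 and -2.40 in P30 cells and -1.09, 0.00, -3.45, 0.11 and 0.03 in P6 cells. P6 replicate 3 shared the low range of the P30 cells, and P30 replicate 1 lay with the high P6 cells.

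Anion exchangers of the Slc26 family had a median difference of 0.03 over 10 genes, and none passed. Slc26a1, a sulfate transporter, had log2 ratios of 3.10, 0.68, -3.33, -4.06 and -3.14 in P30 cells and 1.68, -2.18, 1.88, 0.12 and -3.76 in P6 cells. High and low cells stood at both ages. The difference of -0.90 passed the size rule without P30 replicate 1 (-2.01) or P6 replicate 5 (-1.73). Slc26a6, a chloride-bicarbonate and oxalate exchanger picked after its values were seen, had log2 ratios of -0.28, -5.45, 1.61, -5.02 and 0.36 in P30 cells and 0.00, -6.64, 1.05, -5.23 and 1.06 in P6 cells. Low cells, 2 at each age, were far from the rest, and the SD within ages, 3.48, exceeded that of 99.5% of all genes. Slc26a10 had a difference of 0.47, the highest of the family.

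The pathway lists hold 108 measured genes, and 22 of them (20.4%) passed the size rule, against 14.3% of all genes. At P30 7 were higher and 15 lower, against 4.93% and 9.39% of all genes, and these shares were not tested. Of the 22 past the size rule, 9 kept the call with any 1 cell left out: Car2, Car10, Slc8b1, Micu2, Hfe, Aco1, Hmox2, Sco2 and Nipa2. Besides Mt1, 12 fell under it without some cell. Among bicarbonate partners Car11 was 1.4 without P30 replicate 1 and Car4 was 1.41 without P30 replicate 5, the cell with high endothelial markers. Among chloride genes Clic1 was -0.76 without P30 replicate 3, and Cab39 was -1.07 without P30 replicate 1 and -1.37 without P30 replicate 4. Each of 5 cells ended the call of Wnk3 (P30 replicates 1 and 3 and P6 replicates 1, 3 and 5, from -1.36 to -0.97) and of Oxsr1 (P30 replicates 2 and 3 and P6 replicates 2, 4 and 5, from -1.44 to -1.32). Of the calcium genes, Calr was -1.18 without P30 replicate 3 and -0.93 without P30 replicate 4, and Atp2b1 was -1.35 without P30 replicate 5 and -1.12 without P6 replicate 2. Of the iron genes, Heph was -1.17 without P6 replicate 2, and Cybrd1 was -1.25, -1.44 and -1.47 without P30 replicate 5, P6 replicate 3 and P6 replicate 4. Of the copper genes, Cox17 was -1.56 without P30 replicate 2, and Sco1 was -1.5 without P30 replicate 3 and -1.03 without P6 replicate 5. By processing, Car10 fell under the rule with spike scaling (1.55) and Hmox2 with arithmetic means (-1.25). Nipa2 did so with those (-1.03), a floor of 0.1 (-1.51) or without probe sets that met the floor (-1.55). Medians over cells gave 0.02 for Cab39 and 0.06 for Calr, and arithmetic means gave 0.04 for Wnk3. Atp2b1, Clic1, Cox17, Cybrd1, Oxsr1 and Sco1 also fell under it in some alternative. Car2, Slc8b1, Micu2, Hfe, Aco1 and Sco2 did so in none of those that gave them a value. Micu2 had no value without probe sets that met the floor, and Sco2 none without probe sets ending in _x_at or _s_at.

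Cell by cell, P30 replicate 5 was the lowest of its age over the carriers. Its median deviation from the other 4 P30 cells was -0.62 over the 71 genes and -0.30 over all genes. The same median in the other P30 cells lay between -0.02 and 0.30, and in P6 cells between -0.14 and 0.27. In P30 replicate 5, all 14 endothelial and 5 of 7 Purkinje markers were raised, and 21 astroglial markers had a median deviation of -0.78. Their part in the carriers' values was not tested.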

How the data were processed

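Each array held amplified cDNA of 1 Bergmann glial cell. Per the study's methods, the authors processed the scans with RMA in GeneSpring GX 7.3 (RMA version and genome build not given in the sources used here), set values under 0.01 to 0.01, scaled every array to its 50th percentile, then every probe set to a median of its own. The deposited values are linear ratios of that kind, made by the authors. They carry no signal or background. The number of arrays limits the precision. Here 10 values of 0 were set to 0.01 and ratios were taken to log2. Of 45101 probe sets, 1493 with a blank were left out, which leaves 43608. Platform annotation paired 34958 probe sets with 1 gene, 932 with several and 9211 with none, and symbols were updated through Entrez identifiers for 34754. Genes are means over their single-gene probe sets.

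The age difference of a gene is its mean log2 ratio at P30 minus that at P6. It was read against a 3-fold size rule without a test, since each age is 1 sample. Genes named are those past 3-fold, those with the ages apart, the 2 with the largest absolute difference in each ion group, 12 with known general roles, and genes of the pathway lists past 3-fold. Other carriers were also named, in the text and in the figure of carriers within 3-fold. Only some of these are marked as picked after their values were seen. The carriers, lists, markers and alternatives were chosen with earlier results of these data known. The difference of means was also run on simulated gene values with set differences added. Probe set mapping, the floor and the promoter search were not part of that run. Alternatives were 2 other scalings, a floor of 0.1, medians or arithmetic means over cells, other choices of probe sets, a 2-fold rule and cells left out. Promoters came from RefSeq (GRCm38.p6). Matplotlib 3.10.9 drew the figures, and SciPy 1.17.1, pandas 2.3.3 and NumPy 2.4.6 were run in Python 3.11.15.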

Additional observations from a re-analysis of the deposited data

Results flagged for a closer look

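In 58 groups of 5 cells (29 named carriers at 2 ages), 1 cell stood apart from the other 4 in 7 groups. Chance gives about 1 in 20, but many of these carriers were named for large differences, which a single extreme cell can produce, so the count is not set against that share. The distance is the gap to the nearest cell over the range of the group, against Dixon's 95% critical value. At P30 these were replicate 5 of Slc39a11 at 0.86, where the other P30 cells lay between -6.64 and -6.29, replicate 5 of Slc39a1 at -2.90 (the others between -0.37 and 0.11), and replicate 1 of Slc39a12 at 3.35 (the others between 0.04 and 0.82). At P6 they were replicate 3 of Slc24a3 at -5.61 (the others between -0.34 and 0.57), replicate 2 of Slc12a4 at -4.36 (the others between -0.67 and 0.17), replicate 4 of Slc39a2 at 4.84 (the others between -0.42 and 0.01) and replicate 4 of Slc41a3 at 1.42 (the others between -0.30 and 0.20). All are log2 ratios.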

How the results depend on the processing

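No paired analysis was possible because no result comes from a test and the shared replicate numbers only name cells. Slc39a13, Slc39a4 and Slc41a3 stayed past 3-fold in 9 processing alternatives and with any 1 cell left out, and no called carrier changed sign. Slc39a13 and Slc39a4 have 1 probe set each and no value at the floor, so choices of probe sets could not move them. Slc39a13, with a lowest value of -2.65, could not be moved by the floor of 0.1 either. Of the other 9, Slc24a3, Slc30a5, Slc39a10 and Slc39a11 fell under 3-fold both with a floor of 0.1 and with arithmetic means, Slc30a7 and Slc31a1 with that floor, Slc30a1 with arithmetic means, and Slc24a3, Slc30a1, Slc39a2 and Slc39a12 with medians over cells. Slc39a12 (1.51) also fell under it with spike scaling, Slc30a5 (-1.52) and Slc39a10 (-1.48) with median scaling, and Slc30a7 (-1.54) and Slc39a10 (-0.75) without probe sets that met the floor. With medians Slc4a2 (3.23), Slc4a4 (1.76), Slc9a2 (-3.17), Slc26a1 (-3.26) and Slc30a10 (-1.95) passed it. With a 2-fold rule 9 carriers were higher at P30 and 9 lower, and 29.9% of all genes passed it in either direction. The 7 lower became 2 with a floor of 0.1, 11 with medians over cells, 4 with arithmetic means and 3 without probe sets that met the floor. Zinc transporters past 3-fold were 5, not 9, with a floor of 0.1 or arithmetic means. The other carriers were 5 under median scaling, 1 with a floor of 0.1, 8 with medians over cells and 8 with a 2-fold rule, not 3. Carriers with the ages apart were 2 under median scaling and without both cells numbered 5, and 1 under spike scaling and without probe sets ending in _x_at or _s_at, not 0. The median of all carriers was -0.28 under spike scaling and 0.20 without both cells numbered 5. That of the zinc importers was -0.35 with arithmetic means, -0.19 without probe sets that met the floor and -0.38 without both cells numbered 5. Among the pathway lists, bicarbonate partners had medians of 0.23 (spikes) and 0.80 (arithmetic means), chloride genes -0.65 (spikes) and -0.024 (median over probe sets), and copper genes -0.20 (median over probe sets) and 0.023 (no _x_at or _s_at). Calcium genes had 0.19 (spikes), 0.29 (floor of 0.1), 0.21 (arithmetic means) and 0.14 (without both cells numbered 5). Iron genes had 0.077 (median scaling), -0.36 (spikes), 0.089 (medians over cells) and -0.26 (without both cells numbered 5). The cause was not tested, except that fewer cells or values make more or fewer separations by construction.

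With each cell left out in turn, carriers higher at P30 numbered 4 to 7, carriers lower 4 to 8 (4 without P6 replicate 4), zinc transporters past 3-fold 6 to 9, other carriers 3 to 5 and carriers with the ages apart 0 to 3. The medians ran from -0.29 to 0.41 for sodium/proton exchangers (-0.29 without P30 replicate 2), 0.25 to 0.84 for calcium genes and -0.23 to -0.077 for iron genes. What depth or signal over background limits could not be stated, since ratios carry neither.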
